A study of Homo sapiens with 15 samples.

Results

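The 39 genes described here encode proteins of the extracellular matrix or enzymes that crosslink it: collagens, laminins, nidogen, perlecan, microfibril and adhesive proteins, proteoglycans and lysyl oxidases. They were listed by symbol, with earlier results of these data known, so shares over the list describe the list only. Each was read from the probe set with exactly 1 gene symbol that had the highest mean over the 15 arrays, and 38 of the 39 could be read in this way, out of 19775 genes in all; LAMA3 was not analysed here. The cells were A549, a human lung carcinoma line of epithelial origin, and their RNA was read on HG-U133 Plus 2.0 arrays of Affymetrix, in 5 groups of 3 arrays. These were cells given 40 nM geldanamycin for 24 h, cells given vehicle for 24 h, and cells given vehicle, 10 nM or 40 nM geldanamycin for 48 h. Geldanamycin occupies the ATP pocket of the chaperone HSP90. The series' design text gives 40 nM as the IC50 and 10 nM as the IC20, and the vehicle as DMSO at 0.4%. In all 5 groups the cells had 24 h to attach beforehand and were confluent when harvested. The values below are log2 values from RMA, and differences between groups are log2 differences with the standard error of the fit and 3 arrays per group.

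The extracellular matrix is the protein and sugar mesh that cells secrete around themselves. Epithelial cells rest on a basement membrane, a sheet made of type IV collagen and laminin networks tied together by nidogen and the proteoglycan perlecan. Fibrillar collagens, fibrillin microfibrils and fibronectin build the looser stroma underneath and are made largely by fibroblasts, although carcinoma cell lines often transcribe them too. Matricellular proteins such as SPARC, thrombospondin and tenascin are secreted into the matrix and alter how cells attach to it.

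The type IV collagen genes lie in head-to-head pairs, COL4A1 with COL4A2 on chromosome 13 and COL4A5 with COL4A6 on the X chromosome, and the members of each pair are compared below. The stretch between the start sites is therefore shown for the first pair, and part of it for the second. The COL4A1 and COL4A2 start sites in RefSeq (GRCh38.p14) are 127 bases apart, and the 126 bases between them occupy chr13:110307158-110307283. The COL4A6 start site nearest to that of COL4A5 is 380 bases from it, and a further COL4A6 start site lies at chrX:108438422. The 250 bases before the COL4A5 start occupy chrX:108439588-108439837. Both are written 5′ to 3′ on the plus strand, which is the strand of COL4A2 and COL4A5. Capitals mark the GC box, spelled GGGCGG, and the CCAAT box, searched on both strands; no match of either overlapped the other.
COL4A1-COL4A2: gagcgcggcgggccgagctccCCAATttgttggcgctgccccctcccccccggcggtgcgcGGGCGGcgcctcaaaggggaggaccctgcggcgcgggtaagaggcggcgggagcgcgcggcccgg
COL4A5: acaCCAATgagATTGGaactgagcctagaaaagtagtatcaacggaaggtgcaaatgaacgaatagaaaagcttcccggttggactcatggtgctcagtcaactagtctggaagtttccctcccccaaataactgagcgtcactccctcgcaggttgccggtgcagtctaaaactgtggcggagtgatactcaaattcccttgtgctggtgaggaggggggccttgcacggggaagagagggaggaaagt
The COL4A1-COL4A2 stretch holds 1 GC box and 1 CCAAT box and is 80.2% G or C. The COL4A5 stretch holds 2 CCAAT boxes on opposite strands, the second read here as ATTGG, no GC box, and is 51.2% G or C. Among 35116 RefSeq promoter windows of 300 bases, 44.95% held a GC box and 34.61% a CCAAT box. Of the 30 matrix genes with a window, 24 held a GC box and 10 a CCAAT box in at least 1 of their windows. Some of these genes had more than 1 window. The gene counts are therefore not on the same footing as the shares of windows. These matches describe letters in a window and say nothing about which factors bind there.

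The 10 nM arrays stood apart from the others in their controls, which bears on every 10 nM value below. Poly-A spike probe sets, for bacterial transcripts added to the RNA before labelling, averaged 3.37 on the 10 nM arrays against 5.93 on the 48 h vehicle arrays, and the 3′ minus 5′ difference of the ACTB control was 2.68 against 0.35, whereas that of the GAPDH control was 0.129 against 0.146. On the 40 nM arrays these values were 5.81 and 0.44 at 48 h, near those of vehicle. The 10 nM dose and whatever set these arrays apart cannot be told apart. The mean over all 54675 probe sets was 5.13 or 5.14 in both 24 h groups and 5.52 in the 3 groups of 48 h, so the values of the 2 times are on different scales; levels are therefore compared within a time, except where said. Of 5 epithelial markers 1, EPCAM, was among the dimmest 40% of genes; the list averaged 9.79 at 40 nM and 9.5 in vehicle at 24 h, and 10.66, 10.16 and 10.93 in vehicle, at 10 nM and at 40 nM at 48 h. With 40 nM 4 of the 5 were called higher and KRT7 lower at both times, and at 10 nM KRT18 was called higher and KRT7 and KRT19 lower, KRT19 at -2.41. Of 8 fibroblast markers, 5 lay among the dimmest 40% of genes, and the mean of the list was 4.63 at 40 nM and 4.45 in vehicle at 24 h, and 4.96, 4.99 and 5.01 in vehicle, at 10 nM and at 40 nM at 48 h. ACTA2, 1 of these 8, averaged 8.69 at 40 nM against 7.37 in vehicle at 24 h, and 8.12, 9.21 and 9.53 in vehicle, at 10 nM and at 40 nM at 48 h. Not all of the 8 moved this way. With 40 nM at 24 h 2 were called higher and 1 lower. At 48 h 1 was called higher and 1 lower at each dose. The median change of the list was 0.13 at 24 h, and -0.06 at 10 nM and -0.11 at 40 nM at 48 h. All 4 leukocyte markers and 4 of 5 endothelial markers were also among the dimmest 40%; the leukocyte list averaged 4.03 at 40 nM and 4.0 in vehicle at 24 h, and 4.63, 4.84 and 5.16 in vehicle, at 10 nM and at 40 nM at 48 h, and the endothelial list 3.90 and 3.89, then 4.29, 4.27 and 4.31. The part of other cells in the matrix results was not tested. In a bulk culture a change in which cells are present and a change in RNA per cell cannot be told apart.

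After 24 h at 40 nM, 8 of 10 basement membrane genes were higher than in vehicle, while the transmembrane collagen gene COL13A1 fell. All 4 type IV collagen genes rose, as did perlecan (HSPG2), 2 of the 4 measured laminin chains and nidogen (NID1), and of the genes of the elastic microfibril both fibrillins rose. Of the 38 matrix genes 17 rose and 6 fell (limma, adjusted p below 0.05), that is 23 in all. Over all 19775 genes 31.5% were called, 14.8% higher and 16.7% lower. With the dimmest 40% of genes left out a larger share was called, 6370 genes, and 23 of the 31 members left. The median change was 0.12 over the matrix genes and -0.01 over all genes.

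COL13A1, a collagen that spans the plasma membrane and sits at cell contacts, read 5.19, 5.32 and 5.45 at 40 nM, against 7.11, 6.79 and 6.64 in vehicle. The groups did not overlap, and the difference was -1.53 ± 0.12, a 2.88-fold lower level (limma adjusted p = 3.3e-07). Its 2 other probe sets gave -0.13 and -0.35 and did not pass. COL12A1, a collagen that attaches to the surface of fibrils, read 6.48, 6.54 and 6.74 at 40 nM, against 5.48, 4.94 and 4.84 in vehicle. Every treated array was higher, by 1.50 ± 0.17 or 2.83-fold (adjusted p = 7.0e-06), and 2 of its 4 dimmer probe sets also passed, at 1.41 and 0.66. COL4A5, a chain of the type IV network found in the basement membranes of lung and kidney, read 10.77, 10.68 and 10.72 at 40 nM, against 9.35, 9.38 and 9.29 in vehicle. The separation, 1.38 ± 0.06, was large beside the spread within either group (adjusted p = 6.2e-10). Its other, much dimmer probe set gave 0.16 and did not pass. FBN1, the main fibrillin of microfibrils, read 8.16, 8.19 and 8.34 at 40 nM, against 7.10, 7.04 and 6.92 in vehicle. It rose by 1.21 ± 0.07 (adjusted p = 7.6e-09), and both of its other probe sets passed in the same direction, at 1.24 and 0.65.

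Within the basement membrane group the sizes differed at 24 h. COL4A6, the neighbour of COL4A5, rose by 0.87 ± 0.06. COL4A1 and COL4A2, which form the common type IV trimer, rose by only 0.18 ± 0.06 and 0.15 ± 0.05, with adjusted p of 0.034 and 0.047 in limma. Those last 2 calls ended when the 10 nM arrays were left out of the fit and when the compared groups were fitted alone. HSPG2 rose by 1.17 ± 0.06, the laminin alpha chain LAMA5 by 0.91 ± 0.06, the laminin beta chain LAMB1 by 0.81 ± 0.06 and NID1 by 0.28 ± 0.10. LAMC1, the gamma chain that most laminins share, was at 0.05 ± 0.05, and LAMB3, the beta chain of the laminin under stratified and injured epithelium, was at -0.21 ± 0.11. Neither passed. The other LAMC1 probe set did pass as higher, at 0.26, and so did LAMC1 with all its probe sets averaged (0.16, limma adjusted p = 0.029). NID1 no longer passed in the fit of the compared groups alone, and its 2 other probe sets gave -0.19 and -0.10. The second HSPG2 probe set gave 0.12 and did not pass.

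**Figure D1:**
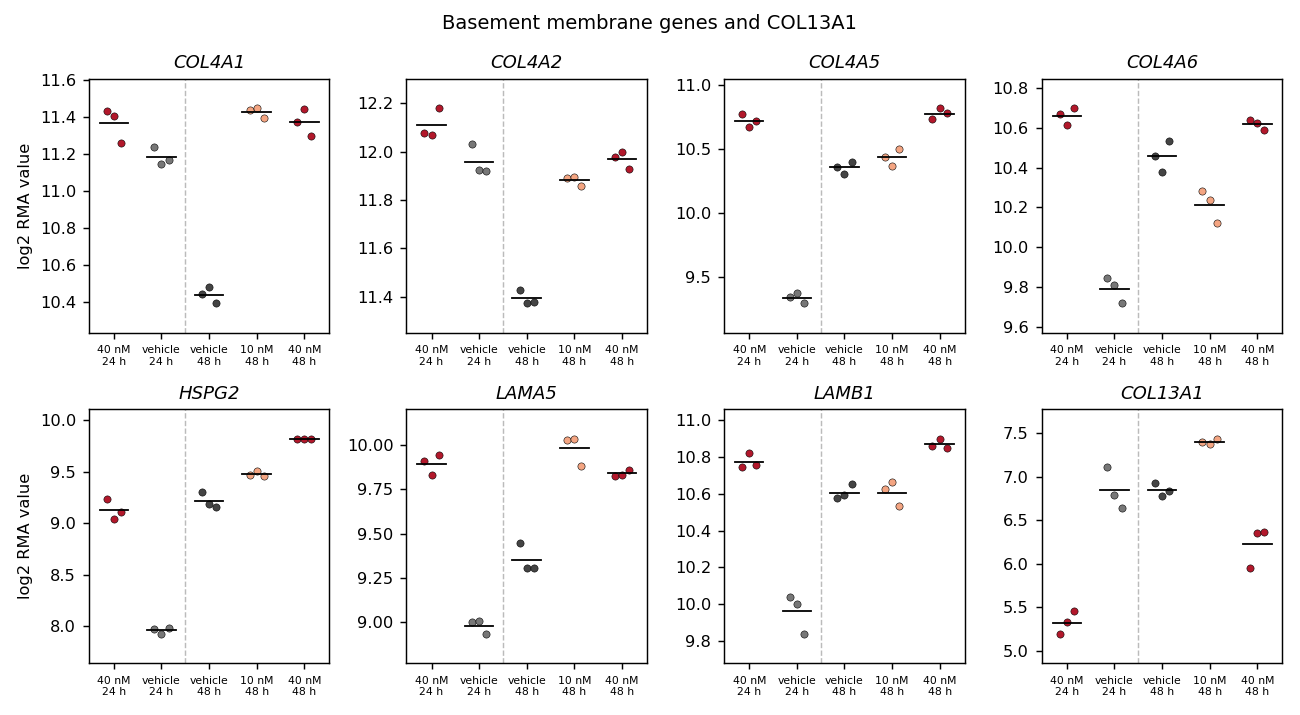
Log2 RMA values (vertical axes, a scale of their own in each panel) of 8 matrix genes in the 5 groups; points are arrays and bars are group means of 3 arrays, and the dashed line divides 24 h from 48 h. COL4A5, COL4A6, HSPG2, LAMA5 and LAMB1 are higher at 40 nM than in vehicle at 24 h, and COL13A1 is lower at 40 nM at both times.

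The stromal genes were mixed at 24 h. Among fibrillar collagens COL1A1 rose by 0.50 ± 0.12 and COL5A2 by 0.41 ± 0.05, and COL5A1, whose product nucleates type I fibrils together with that of COL5A2, fell by 0.51 ± 0.07. The other COL1A1 probe sets gave 0.08 to 0.11 and none passed. COL1A2 (-0.20) and COL3A1 (0.04) did not pass and were among the dimmest 40% of genes. COL6A1 of beaded filaments rose by 0.43 ± 0.07 and COL7A1 of anchoring fibrils by 0.31 ± 0.06, while COL6A2 (0.03) and COL6A3 (-0.21) did not pass. The COL6A1 value rests on 1 of its 8 probe sets: the other 7 gave -0.27 to 0.05 and none passed. FBN2 rose by 0.52 ± 0.10, MFAP2, a small protein bound to fibrillins, fell by 0.72 ± 0.14, and FBLN1, a protein of elastic fibres and basement membranes, did not pass (-0.09). The other FBN2 probe sets gave 0.06 and 0.11 and did not pass. The integrin ligand EDIL3 rose by 0.56 ± 0.08, thrombospondin THBS1 fell by 0.44 ± 0.08 and TGFBI, an integrin-binding protein named for its induction by TGF-beta, by 0.25 ± 0.05. Fibronectin (FN1, 0.16), SPARC (0.09), TNC (-0.03) and periostin (POSTN, -0.14) did not pass. After cyclic loess FN1 did pass (limma adjusted p = 0.0028), as it did in other fits. None of the 4 proteoglycans passed, with values from -0.07 for LUM to 0.20 for BGN. The crosslinking enzyme LOXL2 fell by 0.56 ± 0.06, and LOX, a dim gene, rose by 0.58 ± 0.15. The other LOX probe sets gave 0.06 and 0.16 and did not pass. The LOX call ended when the compared groups were fitted alone (limma adjusted p = 0.065).

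**Figure D2:**
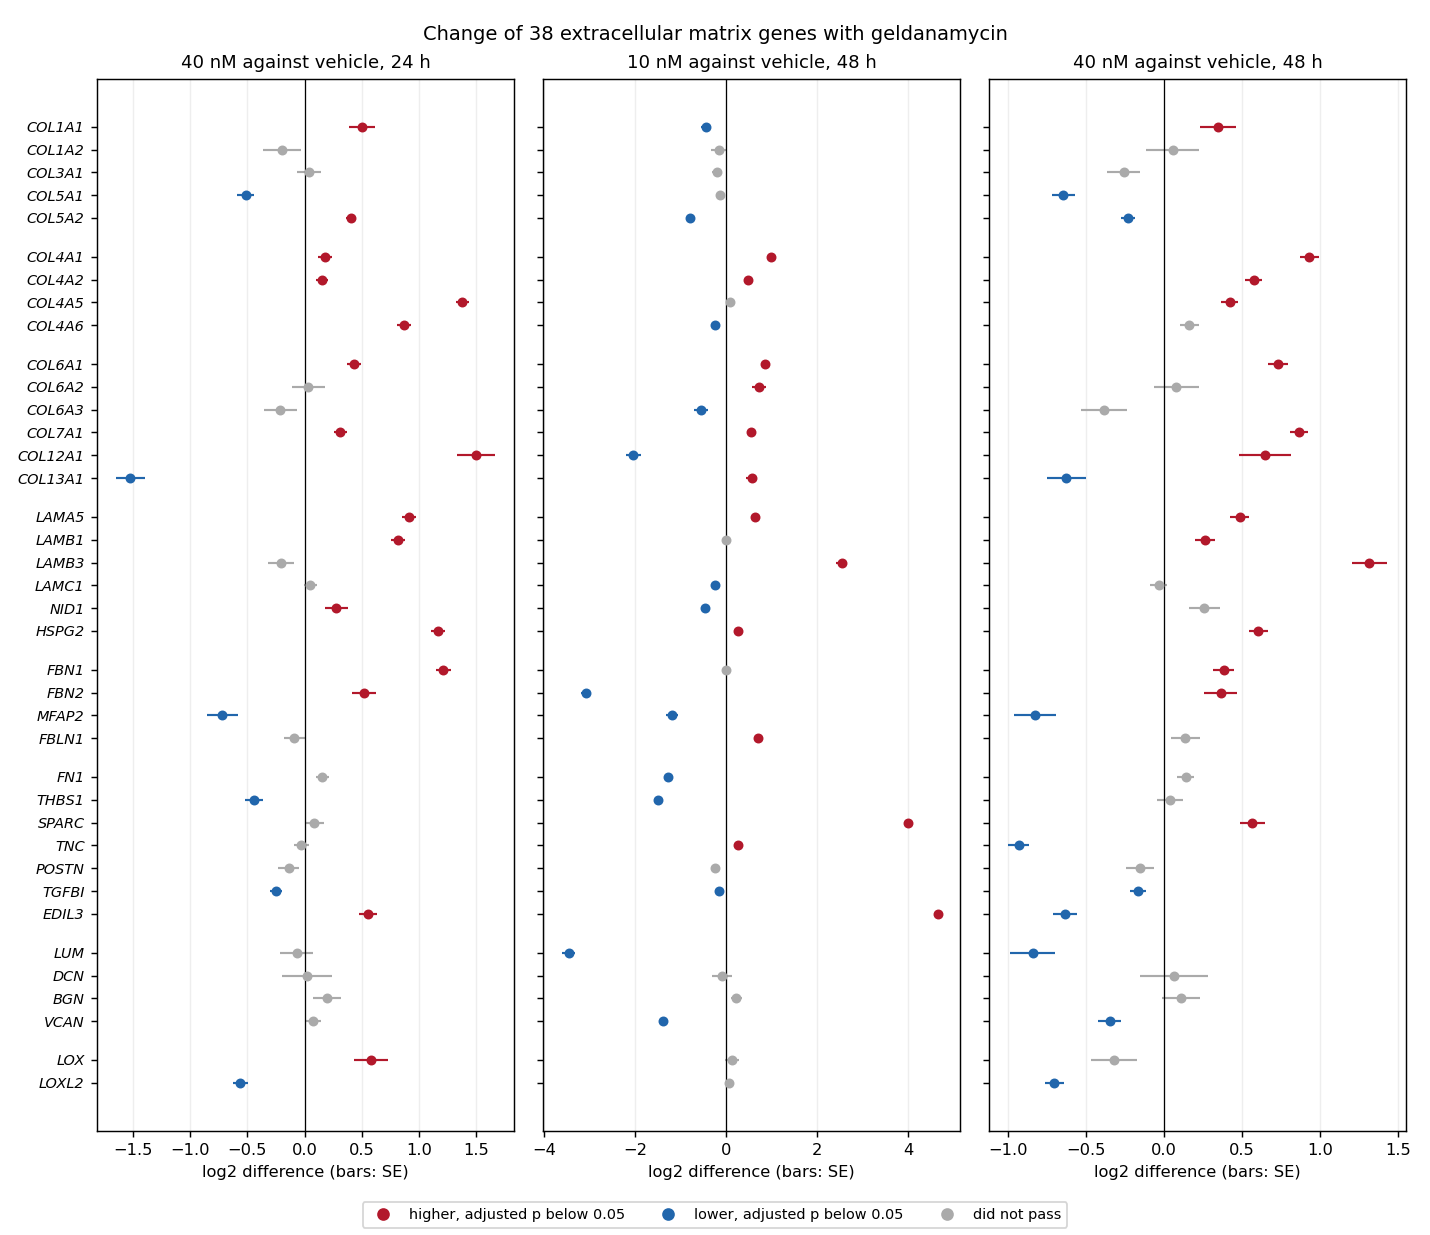
Log2 difference from vehicle (horizontal axes, which differ in range between panels) of the 38 matrix genes, in blocks by role, for 40 nM at 24 h, 10 nM at 48 h and 40 nM at 48 h. Points are the fitted differences with 3 arrays per group, bars are standard errors, and colour shows whether a gene passed; EDIL3 (4.64) and SPARC (4.0) lie far to the right at 10 nM.

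After 48 h at 40 nM, 3 of 4 type IV collagen genes, the type VII collagen gene and the laminin chain LAMB3 were higher than in vehicle, and tenascin, lumican and LOXL2 were lower. Of the 38 genes 14 rose and 10 fell, 24 in all, where over all genes 21.3% were called, 10.5% higher and 10.7% lower. With the dimmest 40% of genes left out a larger share was called, 4614 genes, and 26 of the 31 members left. The median change was 0.09 over the matrix genes and -0.02 over all genes. With the 10 nM arrays left out of the fit, 24 were again called at 48 h, and 21 at 24 h.

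LAMB3 read 6.89, 7.07 and 7.13 at 40 nM, against 5.53, 5.87 and 5.74 in vehicle. No array of one group reached the other, and the rise was 1.32 ± 0.11, or 2.49-fold (limma adjusted p = 1.7e-06). COL4A1 read 11.37, 11.44 and 11.30 at 40 nM, against 10.44, 10.48 and 10.39 in vehicle. It rose by 0.93 ± 0.06 (adjusted p = 1.2e-07), and its second probe set by 0.81. TNC, the hexameric glycoprotein of remodelling tissue and tumour stroma, read 6.95, 6.92 and 6.75 at 40 nM, against 7.84, 7.85 and 7.73 in vehicle. It fell by 0.93 ± 0.07 (adjusted p = 2.7e-07), with no overlap between the groups; its 2 other, dim probe sets gave -0.09 and -0.05 and did not pass. COL7A1 read 10.01, 9.94 and 10.03 at 40 nM, against 9.05, 9.20 and 9.14 in vehicle. The rise was 0.87 ± 0.06 (adjusted p = 1.5e-07), and the second probe set gave 0.95.

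COL4A2 rose by 0.58 ± 0.05, HSPG2 by 0.60 ± 0.06, LAMA5 by 0.49 ± 0.06, COL4A5 by 0.42 ± 0.06 and LAMB1 by 0.26 ± 0.06. The COL4A5 call ended when all probe sets of the gene were averaged (0.13, limma adjusted p = 0.15). The second HSPG2 probe set gave 0.12 and did not pass. COL4A6 (0.16), NID1 (0.26) and LAMC1 (-0.03) did not pass. After cyclic loess COL4A6 and NID1 did pass (limma adjusted p = 0.012 and 0.035), and both also passed in other fits. Among the remaining collagens COL6A1 rose by 0.73 ± 0.07, COL12A1 by 0.65 ± 0.17 and COL1A1 by 0.35 ± 0.12, and COL5A1 fell by 0.65 ± 0.07, COL13A1 by 0.63 ± 0.12 and COL5A2 by 0.23 ± 0.05. The second COL5A2 probe set gave 0.10 and did not pass, and the call ended when both were averaged (-0.07, limma adjusted p = 0.54). The COL1A1 call ended without the 10 nM arrays, with the replicate block and in other fits, and the other COL1A1 probe sets gave -0.16 to 0.18 and none passed. The other COL6A1 probe sets gave -0.17 to 0.05 and the other COL12A1 probe sets -0.25 to 0.21, and none passed. Both calls ended when all probe sets of the gene were averaged (0.04 and 0.09, limma adjusted p = 0.80 and 0.55). COL1A2 (0.06), COL3A1 (-0.26), COL6A2 (0.08) and COL6A3 (-0.38) did not pass.

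FBN1 and FBN2 rose by 0.38 ± 0.07 and 0.36 ± 0.10 at 48 h and MFAP2 fell by 0.83 ± 0.14, while FBLN1 did not pass (0.14). SPARC, a collagen-binding glycoprotein, rose by 0.57 ± 0.08, EDIL3 fell by 0.63 ± 0.08 and TGFBI by 0.17 ± 0.05. The other EDIL3 probe sets gave -0.03 and 0.11 and did not pass, and the EDIL3 call ended when all were averaged (-0.18). FN1 (0.14), THBS1 (0.04) and POSTN (-0.15) did not pass, although 1 of the 6 other THBS1 probe sets did, at 1.02. After cyclic loess FN1 did pass (limma adjusted p = 0.017), as it did in other fits. Lumican (LUM), a small proteoglycan of collagen fibrils, fell by 0.84 ± 0.15, and the large proteoglycan versican (VCAN) by 0.35 ± 0.07; the small proteoglycans decorin (DCN, 0.07) and biglycan (BGN, 0.11) did not pass. LOXL2 fell by 0.70 ± 0.06, and LOX (-0.32) did not pass. The other LOXL2 probe sets gave -0.19 to -0.09 and none passed.

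The head-to-head pairs of type IV genes differed in when their change was larger. At 48 h the 40 nM differences were 0.93 for COL4A1 and 0.58 for COL4A2, and 0.42 for COL4A5 and 0.16 for COL4A6. At 24 h they were 0.18 for COL4A1 and 0.15 for COL4A2, and 1.38 for COL4A5 and 0.87 for COL4A6. The change of the 40 nM effect between the times, tested as a difference of differences, was 0.75 ± 0.09 for COL4A1 and 0.43 ± 0.08 for COL4A2, and -0.96 ± 0.08 for COL4A5 and -0.71 ± 0.09 for COL4A6 (limma adjusted p from 2.3e-06 to 0.0013). In all, 21 of the 38 matrix genes passed this test, 8 higher and 13 lower at 48 h. Over all genes 17.3% passed, 9.18% higher and 8.11% lower.

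At 10 nM and 48 h a few matrix genes stood very far from vehicle. EDIL3 and SPARC were higher by 24.9-fold and 16.0-fold, and FBN2 was lower by 8.40-fold. LUM was lower by a measured 10.9-fold, a value limited by its reading near the low end of the scale at 10 nM. Of the 38 genes 13 rose and 14 fell, 27 in all. Over all genes 26.3% were called, 14.4% higher and 11.9% lower. With the dimmest 40% of genes left out a larger share was called, 5411 genes, and 25 of the 31 members left. The median change was -0.05 over the matrix genes and 0.00 over all genes. At least 2-fold, 3 of the 38 matrix genes were called higher and 7 lower, against 258 and 212 of all 19775 genes. Several of the matrix genes were listed because of such values, so these counts describe the list only.

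EDIL3, an integrin ligand first described in developing endothelium, read 10.45, 10.49 and 10.40 at 10 nM, against 5.97, 5.72 and 5.73 in vehicle. The difference of 4.64 ± 0.08 was the highest among the 19775 genes in this comparison (limma adjusted p = 2.6e-13). Its 2 other probe sets were dim and gave 0.09 and 0.17. SPARC read 10.78, 10.77 and 10.71 at 10 nM, against 6.87, 6.72 and 6.69 in vehicle. The 2 groups lay 4.0 ± 0.08 apart (adjusted p = 6.6e-13), and a second probe set gave 4.68.

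LUM read 3.01, 2.78 and 2.97 at 10 nM, against 6.55, 6.11 and 6.45 in vehicle, a fall of 3.45 ± 0.15 (limma adjusted p = 7.5e-10). Its mean at 10 nM was exceeded by all but 5.53% of the genes on those arrays, near the low end of the scale. Its other probe set, dim on all arrays, gave -0.09. FBN2 read 6.79, 6.79 and 6.69 at 10 nM, against 9.92, 9.83 and 9.73 in vehicle. It fell by 3.07 ± 0.10 (adjusted p = 9.2e-11), and its 2 other, dim probe sets gave -0.69, which passed, and 0.00. VCAN and EDIL3 lie near each other on chromosome 5 (GRCh38.p14, 83471744 to 83582302 and 83940554 to 84384880), and they moved in opposite directions at 10 nM.

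Further rises at 10 nM were those of LAMB3 (2.54 ± 0.11), COL4A1 (0.99 ± 0.06), COL6A1 (0.86 ± 0.07), COL6A2 (0.72 ± 0.14), FBLN1 (0.71 ± 0.09), LAMA5 (0.63 ± 0.06), COL13A1 (0.56 ± 0.12), COL7A1 (0.55 ± 0.06), COL4A2 (0.49 ± 0.05), HSPG2 and TNC (both 0.26). The second COL4A2 probe set passed in the opposite direction, at -0.25. The calls of COL4A2, COL6A1, HSPG2 and TNC ended when all probe sets of a gene were averaged (0.12, 0.07, 0.03 and 0.07). Further falls were those of COL12A1 (-2.03 ± 0.17), THBS1 (-1.50 ± 0.08), VCAN (-1.39 ± 0.07), FN1 (-1.27 ± 0.06), MFAP2 (-1.18 ± 0.14), COL5A2 (-0.80 ± 0.05), COL6A3 (-0.55 ± 0.15), NID1 (-0.46 ± 0.10), COL1A1 (-0.44 ± 0.12), LAMC1 (-0.25 ± 0.05), COL4A6 (-0.24 ± 0.06) and TGFBI (-0.16 ± 0.05). The 11 that did not pass were COL1A2, COL3A1, COL5A1, COL4A5, LAMB1, FBN1, POSTN, DCN, BGN, LOX and LOXL2, with values from -0.23 for POSTN to 0.22 for BGN. Both other COL5A1 probe sets passed as higher at 10 nM, each at 0.30, where the one used was at -0.13.

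**Figure D3:**
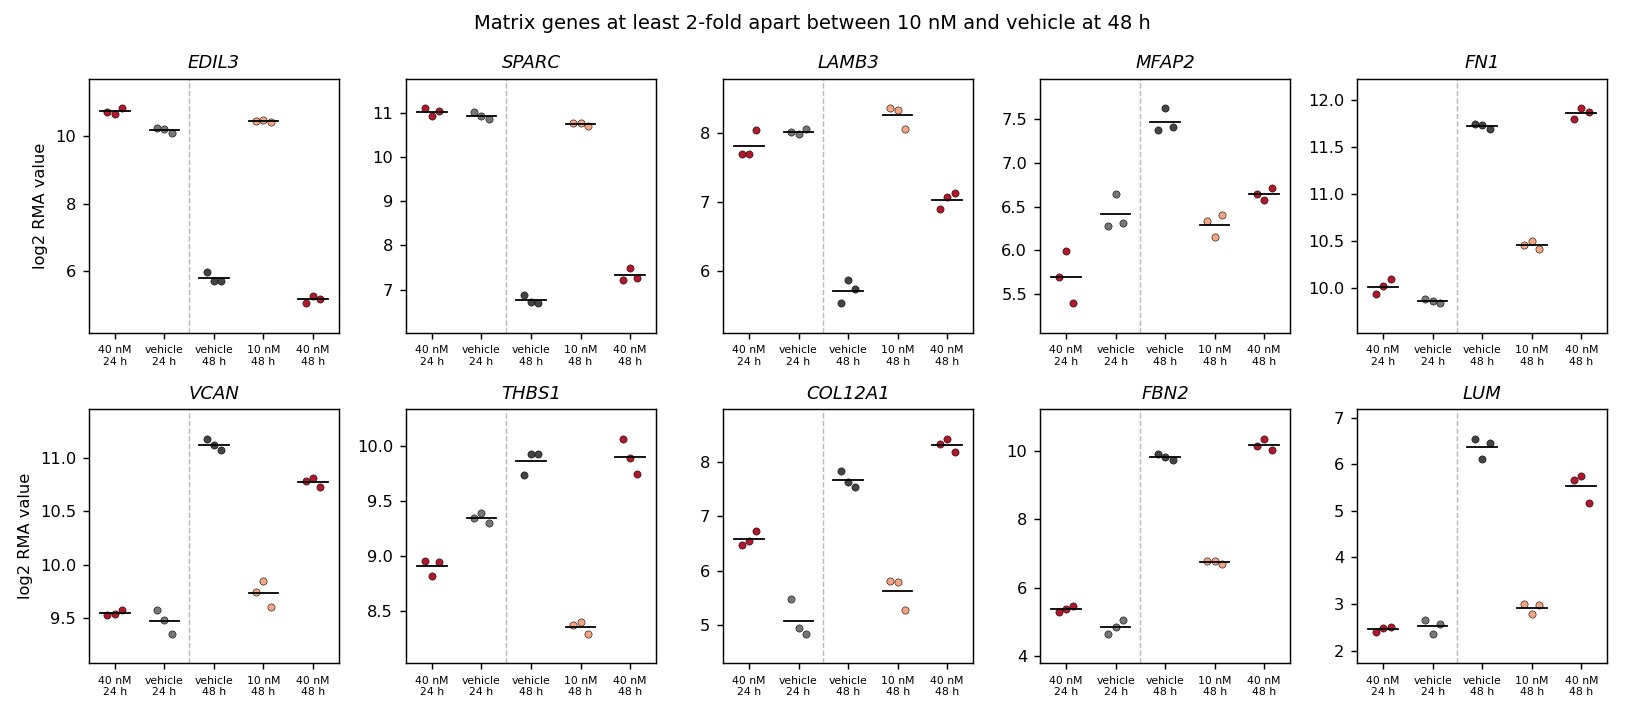
Log2 RMA values (vertical axes, a scale of their own in each panel) of the 10 matrix genes whose 10 nM mean was at least 1 from the 48 h vehicle mean; points are arrays, bars are means of 3 arrays, and the dashed line divides 24 h from 48 h. In EDIL3, SPARC and LAMB3 the 10 nM arrays are high like both 24 h groups, and in LUM, VCAN and MFAP2 they are near the 24 h vehicle arrays, away from 48 h vehicle.

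For several of these genes the 48 h values did not follow the order of the doses. EDIL3 averaged 5.81 ± 0.14, 10.45 ± 0.04 and 5.17 ± 0.11 (SD, n = 3 arrays) in vehicle, at 10 nM and at 40 nM. SPARC averaged 6.76 ± 0.10, 10.75 ± 0.04 and 7.33 ± 0.15 in the same order. FBN2 averaged 9.83 ± 0.10, 6.76 ± 0.06 and 10.19 ± 0.17. In each case the middle dose lay far outside the span of the other 2 groups. The 10 nM mean was at least 1 above or below both others in 9 of the 38 matrix genes, namely EDIL3, SPARC, LAMB3, FBN2, LUM, COL12A1, THBS1, VCAN and FN1, and in 1.1% of all genes. This count was chosen after the values were seen, and several of the matrix genes were listed because of such values, so the share describes the list only.

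Between 40 nM and 10 nM at 48 h, 16 matrix genes were higher at 40 nM and 10 lower, 26 in all, where over all genes 26.4% were called, 11.9% higher and 14.5% lower. EDIL3 had the lowest difference of the 19775 genes, at -5.28 ± 0.08, and SPARC was at -3.43 ± 0.08. FBN2 was at 3.43 ± 0.10, COL12A1 at 2.68 ± 0.17, LUM at 2.61 ± 0.15, THBS1 at 1.54 ± 0.08 and FN1 at 1.41 ± 0.06. LOXL2 (-0.77 ± 0.06) and COL5A1 (-0.51 ± 0.07) had not passed at 10 nM and were lower at 40 nM, and TNC (-1.19 ± 0.07) and COL13A1 (-1.18 ± 0.12), higher than vehicle at 10 nM, were lower too. COL4A1 (-0.06 ± 0.06) and COL4A2 (0.09 ± 0.05) did not pass between the doses, but the second probe set of each did, at 0.39 and 0.81.

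The 10 nM levels were then set beside the vehicle levels of 24 h. A gene was marked where its 10 nM mean was at least 1 from the 48 h vehicle mean and within 0.5 of the 24 h vehicle mean. This marked 6 of the 38 matrix genes: SPARC, EDIL3, LAMB3, LUM, VCAN and MFAP2. LUM read among the dimmest genes in both groups, where 5.53% of genes at 10 nM and 3.10% in 24 h vehicle were at or below its mean, so its mark says only that it was near the low end of the scale in both. It marked 0.759% of all genes, 150 of the 470 whose 10 nM mean was at least 1 from 48 h vehicle, a distance that 10 of the matrix genes reached. The comparisons share arrays and cross the 2 scales, so the marks are a description without a test; the median over all genes was 0.37 higher at 10 nM than in 24 h vehicle.

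SPARC averaged 10.75 ± 0.04 at 10 nM and 10.94 ± 0.07 in vehicle at 24 h. For EDIL3 the means were 10.45 ± 0.04 and 10.17 ± 0.07, for LAMB3 8.25 ± 0.16 and 8.01 ± 0.04, and for LUM 2.92 ± 0.12 and 2.53 ± 0.16. For VCAN they were 9.73 ± 0.12 and 9.47 ± 0.11, and for MFAP2 6.29 ± 0.13 and 6.41 ± 0.20. Just outside the marks were COL12A1, at 0.54 from 24 h vehicle, FN1, at 0.60, and COL4A1, which was 0.24 from 24 h vehicle but 0.99 from 48 h vehicle. FBN2 at 10 nM lay between the vehicle levels of the times, 1.91 above that of 24 h and 3.07 below that of 48 h, and THBS1 lay below both, by 0.99 and 1.50. KRT19, a keratin and no matrix gene, had means of 5.90 at 10 nM, 4.85 in 24 h vehicle and 8.31 in 48 h vehicle.

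The vehicle groups themselves differed in these genes. FBN2 averaged 9.83 ± 0.10 in vehicle at 48 h and 4.84 ± 0.21 in vehicle at 24 h, the highest of all such differences over the 19775 genes at 4.98. LUM averaged 6.37 ± 0.23 and 2.53 ± 0.16, COL12A1 7.66 ± 0.16 and 5.09 ± 0.34, FN1 11.73 ± 0.03 and 9.86 ± 0.03, and VCAN 11.12 ± 0.05 and 9.47 ± 0.11, with 48 h first. EDIL3 averaged 5.81 ± 0.14 at 48 h and 10.17 ± 0.07 at 24 h, SPARC 6.76 ± 0.10 and 10.94 ± 0.07, and LAMB3 5.71 ± 0.17 and 8.01 ± 0.04. The median over all genes was 0.35 higher at 48 h. Relative to that shift the differences were 4.63 for FBN2, 3.49 for LUM, 2.23 for COL12A1, 1.52 for FN1, -4.72 for EDIL3, -4.53 for SPARC and -2.65 for LAMB3. At 40 nM, SPARC averaged 7.33 ± 0.15 at 48 h and 11.03 ± 0.09 at 24 h, and FBN2 10.19 ± 0.17 and 5.37 ± 0.09. Of the matrix genes 32 passed between the vehicle groups and 25 between 10 nM and 24 h vehicle, where the share of all genes that passed was 70.7% and 71.6%. After cyclic loess between arrays, which takes out the shift, 31 and 22 of the matrix genes passed, while the count over all 19775 genes was 8262 and 8665 in place of 13975 and 14150. Whether the share of matrix genes lies above or below that of all genes in the second of these comparisons thus depends on the scaling. Time in culture, the normalization run and any other difference between the sets of arrays cannot be told apart here.

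Genes that act on the matrix were read from 4 further lists, each gene from 1 probe set. Their other probe sets and the alternative fits were not examined for these lists. The shares of all genes given beside them include the dimmest genes. With the dimmest 40% of genes left out, a larger share of genes was called in each comparison with vehicle. Of 25 collagen processing enzymes 13 rose (52.0%) and 4 fell (16.0%) with 40 nM at 24 h, where 14.8% of all genes were higher and 16.7% lower, and the median was 0.20. At 48 h 7 rose (28.0%) and 2 fell (8.0%), where 10.5% of all genes were higher and 10.7% lower, with a median of 0.08. The lysyl hydroxylase PLOD1, which prepares collagen for crosslinking, rose by 1.40 ± 0.06 at 24 h and 0.82 ± 0.06 at 48 h. The prolyl hydroxylase P4HA2, which stabilises the triple helix, rose by 0.93 ± 0.06 and 0.69 ± 0.06. P3H2, another prolyl hydroxylase, rose by 0.92 ± 0.08 at 24 h, and LOXL1, a lysyl oxidase of elastic fibres, fell by 0.98 ± 0.17 at 48 h. At 10 nM 4 of these enzymes rose (16.0%) and 7 fell (28.0%), against 14.4% and 11.9% of all genes.

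Of 22 matrix receptors 2 rose and 6 fell at 24 h with 40 nM, 8 called (36.4%) where 31.5% of all genes were, and the median was -0.12. At 48 h 4 rose and 2 fell, 6 called (27.3%) against 21.3% of all genes, with a median of -0.02. The syndecan SDC1 fell by 0.73 ± 0.05 at 24 h, and the laminin-binding integrin chains ITGA6 and ITGA3 fell by 0.63 ± 0.07 and 0.47 ± 0.07. At 48 h the collagen-binding chain ITGA2 rose by 0.69 ± 0.07 and the syndecan SDC4 by 0.51 ± 0.06, and ITGA6 fell by 0.40 ± 0.07. At 10 nM 3 receptors rose and 5 fell (36.4%, against 26.3% of all genes).

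Of 26 matrix proteases and their inhibitors 5 rose (19.2%) and 7 fell (26.9%) at 24 h with 40 nM, where 14.8% of all genes were higher and 16.7% lower, and the median was 0.00. At 48 h 7 rose (26.9%) and 4 fell (15.4%), against 10.5% and 10.7% of all genes, with a median of 0.05. MMP7, a metalloprotease made by epithelial cells, rose by 1.28 ± 0.15 at 24 h and 2.03 ± 0.15 at 48 h. MMP9 fell by 0.69 ± 0.14 and the urokinase receptor PLAUR by 0.67 ± 0.06 at 24 h. At 48 h the plasminogen activator PLAT rose by 1.08 ± 0.10 and the gelatinase MMP2 fell by 0.99 ± 0.07. At 10 nM 11 rose (42.3%) and 4 fell (15.4%), against 14.4% and 11.9% of all genes.

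In the TGF-beta pathway, which drives transcription of many matrix genes, 4 of 20 genes rose (20%) and 8 fell (40.0%) at 24 h with 40 nM, where 14.8% of all genes were higher and 16.7% lower, and the median was -0.06. At 48 h 4 rose (20%) and 7 fell (35.0%), against 10.5% and 10.7% of all genes, with a median of -0.12. CCN2, a matricellular growth factor and common target of the pathway, fell by 1.91 ± 0.09 at 24 h and 1.03 ± 0.09 at 48 h. The co-receptor TGFBR3 rose by 0.96 ± 0.11 and the ligand TGFB2 by 0.76 ± 0.07 at 24 h. LTBP3, which holds latent TGF-beta in the matrix, fell by 0.90 ± 0.09 and SMAD4, a shared effector of the pathway, by 0.46 ± 0.09 at 48 h. At 10 nM 4 rose (20%) and 11 fell (55.0%), against 14.4% and 11.9% of all genes.

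**Figure D4:**
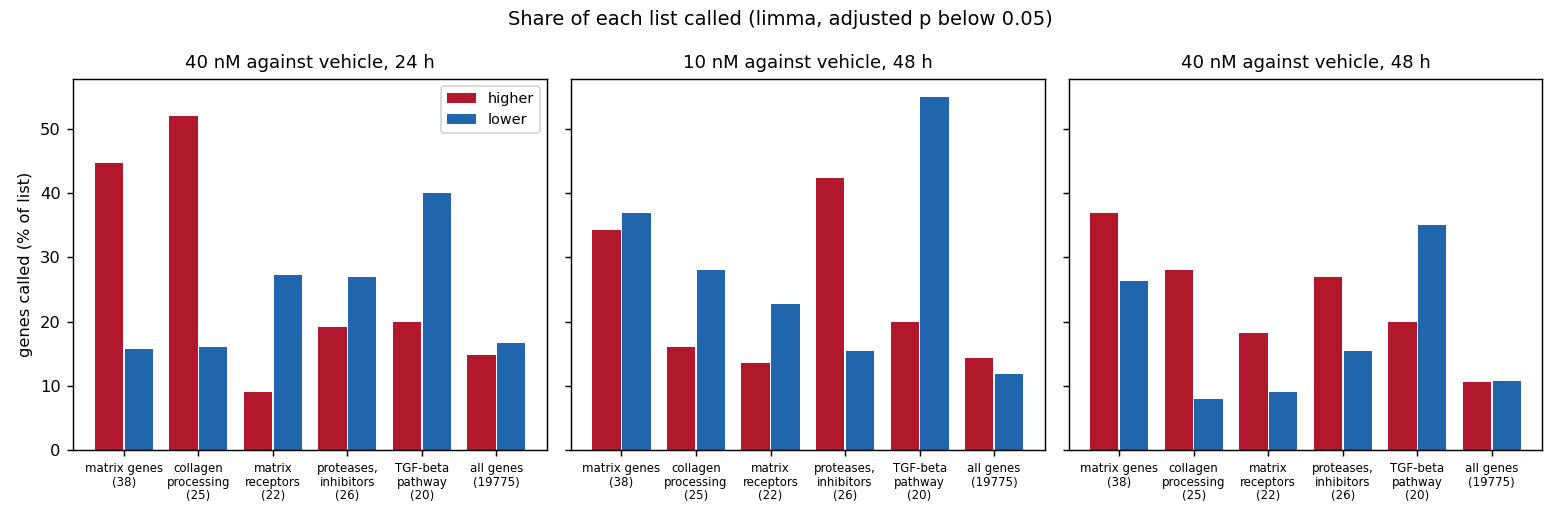
Percent of each list called higher and lower (vertical axis, from 0) in limma at adjusted p below 0.05, for 40 nM at 24 h, 10 nM at 48 h and 40 nM at 48 h against vehicle; the number of genes read in each list is in brackets. At 24 h 13 of 25 collagen processing enzymes and 17 of 38 matrix genes were called higher, and 14.8% of all genes.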

How the data were processed

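RNA of A549 cells was measured on 15 arrays, in 5 groups of 3 by their titles. The values are log2 RMA values as the authors deposited them, and the submitters' processing notes name RMA and Affymetrix Expression Console, whose version was not given in the sources used here. Because RMA corrects background, quantile-normalizes arrays and summarises the probes of a set, levels of different probe sets are not comparable. Of 54675 probe sets 62 were controls; 41091 had 1 gene symbol, 1801 several and 11721 none here, and 41037 symbols could be updated through the gene ID.

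The linear model (limma 3.58.1, lmFit and eBayes, R 4.3.3) had 1 mean per group over the 15 arrays and 10 residual degrees of freedom, two-sided, with Benjamini-Hochberg adjustment over 19775 genes and a threshold of 0.05; there were 7 comparisons. The fit was tested on simulated data. The number of arrays limits precision: the median standard error of a difference was 0.097. The labels do not say that replicates were separate cultures, so p-values measure the spread between arrays. All members were named, with every array's value for the 4 largest called changes in each comparison with vehicle, and up to 3 called genes of each related list at 40 nM. Members and lists were chosen with earlier results of these data known. Alternatives were cyclic loess, array medians subtracted, the dimmest 40% of genes left out, averaging all probe sets of a gene, no _x_at or _s_at probe sets, the replicate block, a robust prior with an intensity trend, the compared groups alone, no 10 nM arrays, and each array left out in turn.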

Additional observations from a re-analysis of the deposited data

Results flagged for a closer look

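The effect of 40 nM differed between 48 h and 24 h in 21 matrix genes, by limma's test of the difference of differences at adjusted p below 0.05. The effect was higher at 48 h for LAMB3 (1.52), COL13A1 (0.90), COL4A1 (0.75), COL7A1 (0.55), SPARC (0.48), THBS1 (0.48), COL4A2 (0.43) and COL6A1 (0.30). It was lower at 48 h for EDIL3 (-1.19), COL4A5 (-0.96), TNC (-0.90), LOX (-0.90), COL12A1 (-0.85), FBN1 (-0.83), LUM (-0.77), COL4A6 (-0.71), COL5A2 (-0.64), HSPG2 (-0.56), LAMB1 (-0.55), LAMA5 (-0.43) and VCAN (-0.42). The COL6A1 call ended with the replicate block (adjusted p = 0.067), without the 10 nM arrays (adjusted p = 0.059), with all probe sets averaged, with the compared groups alone and with any of 11 single arrays left out (replicate 1 or 2 of either 24 h group or of 10 nM, any 48 h vehicle array, replicate 2 or 3 of 40 nM at 48 h). The COL12A1 call ended without any of 5 single arrays (24 h vehicle replicate 2 or 3, 24 h 40 nM replicate 3, 48 h vehicle replicate 1, 48 h 40 nM replicate 3). With all probe sets averaged the calls of COL13A1, HSPG2 and THBS1 ended too, and without _x_at and _s_at probe sets those of COL4A5, FBN1, LUM and THBS1. EDIL3 changed sign, with -0.63 at 48 h and 0.56 at 24 h. Its 48 h call ended with all probe sets averaged (-0.18, limma adjusted p = 0.081), and its other probe sets gave -0.03 and 0.11 at 48 h. COL5A2 had -0.23 at 48 h and 0.41 at 24 h, but its second probe set had 0.10 and 0.64, with no change of sign. LAMB3 and TNC passed against vehicle at 48 h and not at 24 h, and for both the difference itself passed.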

How the results depend on the processing

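The counts of called matrix genes stayed within 1.5 times the reported ones in all alternatives but 1. Without _x_at and _s_at probe sets only 30 members could be read, and 11 were called at 24 h with 40 nM, 17 between 40 nM and 10 nM, 21 between the vehicle groups and 11 for the change of the 40 nM effect. The counts over all genes fell too. In these 4 comparisons they were 4499, 3733, 11797 and 2296, in place of 6222, 5211, 13975 and 3420. With 1 array left out the counts were 20 to 23 (40 nM, 24 h), 24 to 27 (10 nM), 20 to 25 (40 nM, 48 h), 25 to 27 (40 nM against 10 nM), 29 to 31 (vehicle groups), 19 to 21 (change of effect) and 21 to 26 (10 nM against 24 h vehicle), and 6 or 7 genes were marked as near 24 h vehicle. No pairing of arrays by replicate number was seen. Deviations correlated over 0.1 in 10 of 30 same-numbered pairs and 23 of 60 differently numbered pairs, and the own number correlated best in 17 of 60 cases. With 3 arrays per group these values cannot exclude a pairing. With the replicate block 22, 26, 22, 26, 31, 20 and 24 were called in the same order. Over all genes the block gave 5974, 4920, 3864, 4894, 13782, 3052 and 13943, in place of 6222, 5204, 4207, 5211, 13975, 3420 and 14150.

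Single results were followed for each member in each comparison. Those between the vehicle groups and between 10 nM and 24 h vehicle were followed only where the change was at least 1. Of these 207 single results 150 kept direction and side of the threshold in every alternative. With no change of sign, a call ended in at least 1 alternative for 38 results and was gained for 17. Reversed values, without _x_at and _s_at probe sets, were THBS1 at 24 h (0.39, adjusted p = 0.11), COL6A1 at 10 nM (-0.10), at 40 nM at 48 h (-0.00093) and in the change of effect (-0.032), COL4A5 at 48 h (-0.16) and between the doses (-0.31), and FBLN1 at 48 h (-0.28, limma adjusted p = 0.027). Each was then read from another probe set of the gene. Averaging all probe sets of a gene, NID1 at 24 h (-0.0049) and COL4A1 between the doses (0.17, adjusted p = 0.045) reversed, and COL4A2 between the doses passed (0.45, adjusted p = 5.9e-05). Without _x_at and _s_at probe sets LUM, read from a dim probe set, was no longer called at either dose. Leaving out 1 array ended these calls against vehicle: COL4A1, COL4A2 and NID1 at 24 h and COL1A1 and TGFBI at 48 h (40 nM) with any of several arrays, TGFBI at 10 nM likewise, COL12A1 at 40 nM at 48 h (vehicle replicate 3 or 40 nM replicate 2), FBN2 at 40 nM at 48 h (vehicle replicate 2 or 3, or 40 nM replicate 2), and COL6A3 and TNC at 10 nM (vehicle replicate 3).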
